A study of Mus musculus with 165 samples.

Results

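Interferon-gamma inducible GTPases were followed in the brain and liver of aging mice through 10 genes chosen by symbol: 6 immunity-related GTPases (IRGs: Igtp, Irgm1, Irgm2, Iigp1, Tgtp1 and Tgtp2) and 4 guanylate-binding proteins (GBPs: Gbp2, Gbp3, Gbp4 and Gbp7). Each symbol matched 1 Ensembl identifier of the 55471 in each tissue's count table, and all 10 genes passed the filter on low counts in both tissues. The choice used no measured value of its own, but it was made with earlier results of these data known. Bulk RNA sequencing covered male mice of the inbred strain C57BL/6J/Ukj, kept only to age, with no treatment or altered allele named, so every group shared sex and strain. Brains were counted in 82 libraries, 15, 16, 16, 17 and 18 of them at 3, 9, 15, 24 and 28 months. Livers were counted in 83 libraries, 16, 16, 16, 17 and 18 at the same ages. A brain and a liver with the same age and number in the labels came from 1 mouse, which gave 82 pairs, and the brain of the 3-month mouse 6 was not analysed here. By its title, the series is about inflammation, cognition and tissue upkeep in aging, and the comparisons asked how these transcripts differed with age, between tissues and between individual mice.

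Interferon-gamma, which T cells and natural killer cells release, binds the receptor pair Ifngr1 and Ifngr2, and its signal reaches GAS motifs in the promoters of its targets. Type I interferons act through the ISRE motif, and interferon regulatory factors such as Irf1 bind ISRE-like sites too. IRGs and GBPs are large cytosolic GTPases that coat the vacuoles of intracellular pathogens and help to break them. Among the IRGs, Igtp, Irgm1 and Irgm2 are regulators that sit on host membranes and keep the effectors inactive there. The effectors Iigp1, Tgtp1 and Tgtp2 load onto the vacuole, and the GBPs assemble on vacuoles and bacteria and promote inflammasome activation. Rodent livers and brains need this system to control parasites such as Toxoplasma.

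All 10 genes are annotated as protein coding in GENCODE M21 on GRCm38, and 8 of them lie in 3 clusters. On chromosome 11, Igtp (chr11:58199556-58207591) and Irgm2 (chr11:58199618-58222782) stand on the plus strand with 162 exon bases in common. On the minus strand of the same chromosome lie Irgm1 (chr11:48861968-48871683), Tgtp1 (chr11:48985327-48994172) and Tgtp2 (chr11:49057194-49064206). Gbp7 (chr3:142530342-142550149), Gbp3 (chr3:142560026-142573209) and Gbp2 (chr3:142620602-142638008) follow each other on the plus strand of chromosome 3. Gbp4 (chr5:105115767-105139586) is on the minus strand of chromosome 5, and Iigp1, whose position is given with its values, is on another. Tgtp1 and Tgtp2 are near-identical copies: of the windows of 100 transcript bases, 70.3% of those of Tgtp1 and 76.8% of those of Tgtp2 occurred in the other gene. Their counts are uncertain for this reason, since the treatment of shared reads is not given in the sources used here, and they are best read as 1 signal. Gbp7 shared 10.0% of its windows with other genes, 9.59% of all its windows with the overlapping gene Gm43802, and Igtp shared 5.16% with Irgm2. The share was 3.01% for Irgm2, 1.64% for Gbp4 and 0.694% for Gbp3, and no window of Irgm1, Iigp1 or Gbp2 occurred in another gene.

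Promoter sequences from RefSeq (GRCm38.p6) were found for 8 of the 10 genes, as 9 windows of 300 bases from 250 before to 50 after a transcript start, and none was held for Iigp1 and Gbp4. 6 of the windows are printed, to show where the motifs of interferon signalling stand in these promoters, and those of Tgtp1 and Gbp3 are described in words. The motifs searched, on both strands, were GAS as TTCNNNGAA and ISRE as GAAA, any 2 bases and GAAA, which reads TTTC, any 2 bases and TTTC on the other strand. Capitals mark every match, each sequence runs 5′ to 3′ along the strand of its gene, and overlapping ISRE matches run together.
Igtp (chr11:58199306-58199605, plus strand): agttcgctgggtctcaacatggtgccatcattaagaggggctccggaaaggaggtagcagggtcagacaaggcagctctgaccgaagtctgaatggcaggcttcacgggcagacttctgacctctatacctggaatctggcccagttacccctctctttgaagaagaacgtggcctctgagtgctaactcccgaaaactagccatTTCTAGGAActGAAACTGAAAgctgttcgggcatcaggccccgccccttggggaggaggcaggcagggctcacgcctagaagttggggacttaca
Irgm2 (chr11:58214727-58215026, plus strand): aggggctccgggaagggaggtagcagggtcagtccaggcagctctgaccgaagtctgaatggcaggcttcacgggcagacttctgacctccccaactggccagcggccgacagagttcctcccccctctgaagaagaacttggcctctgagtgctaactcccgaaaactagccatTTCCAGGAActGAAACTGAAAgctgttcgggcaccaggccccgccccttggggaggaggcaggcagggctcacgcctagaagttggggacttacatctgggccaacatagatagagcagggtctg
Tgtp2 (chr11:49064163-49064462, minus strand): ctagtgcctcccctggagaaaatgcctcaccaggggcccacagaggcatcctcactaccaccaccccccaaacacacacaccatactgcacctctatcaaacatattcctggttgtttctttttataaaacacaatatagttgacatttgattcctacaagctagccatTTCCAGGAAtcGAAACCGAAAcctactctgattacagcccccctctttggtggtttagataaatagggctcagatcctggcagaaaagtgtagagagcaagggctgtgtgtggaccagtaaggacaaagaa
Irgm1 (chr11:48871371-48871670, minus strand): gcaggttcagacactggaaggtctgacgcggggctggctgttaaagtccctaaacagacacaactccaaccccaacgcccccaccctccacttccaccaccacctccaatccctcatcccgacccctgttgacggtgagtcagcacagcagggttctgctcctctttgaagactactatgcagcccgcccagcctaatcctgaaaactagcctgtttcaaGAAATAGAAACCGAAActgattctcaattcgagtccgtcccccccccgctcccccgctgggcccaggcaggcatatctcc
Gbp2 (chr3:142620413-142620712, plus strand): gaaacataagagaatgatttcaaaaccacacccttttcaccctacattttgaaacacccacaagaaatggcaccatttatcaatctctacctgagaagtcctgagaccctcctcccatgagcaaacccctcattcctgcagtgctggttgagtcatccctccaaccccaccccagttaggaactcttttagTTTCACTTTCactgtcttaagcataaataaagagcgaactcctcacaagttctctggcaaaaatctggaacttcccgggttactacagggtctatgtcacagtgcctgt
Gbp7 (chr3:142530086-142530385, plus strand): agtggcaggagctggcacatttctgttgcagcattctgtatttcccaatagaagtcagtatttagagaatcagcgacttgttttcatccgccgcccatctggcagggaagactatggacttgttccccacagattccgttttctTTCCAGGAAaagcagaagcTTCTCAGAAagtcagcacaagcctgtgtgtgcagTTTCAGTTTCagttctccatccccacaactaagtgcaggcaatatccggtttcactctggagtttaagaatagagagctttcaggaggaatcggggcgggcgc

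An ISRE was present in 8 of the 9 windows of these genes and in 3.44% of all 32851 windows (1131 windows). A GAS was present in 5 of the 9 and in 8.30% of all windows (2726 windows). In Igtp, Irgm2, Tgtp1 and Tgtp2 the GAS stood directly upstream of the ISRE with 2 bases between them. That arrangement, looked for after it was seen in these genes, occurred in 5 of the 32851 windows, 0.0152%, and the fifth belonged to Gm12185, the gene that overlaps Tgtp1. Counted from the transcript start, the GAS of Igtp began at base -45 and its ISRE at -34. The same pair began at -75 and -64 in Irgm2, at -88 and -77 in Tgtp1 and at -81 and -70 in Tgtp2. Irgm1 held 2 overlapping ISRE matches, at -30 and -24, and no GAS. Among the GBPs, Gbp2 held 1 ISRE at -59, 1 window of Gbp3 held 2 overlapping ones at -45 and -39, and its other window held neither motif. Gbp7 held GAS matches at -106 and -87 and an ISRE at -53. These are matches of letters in short windows, and binding was not measured.

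Library totals ran from 11460609 to 73390216 counts in the brain and from 5823039 to 57490197 in the liver. Levels below are CPM, counts scaled to a fixed library size after TMM normalization, and p-values measure only the spread between these mice. Alb, the albumin gene of hepatocytes, was at 14018 CPM or above in every liver and at 18.5 CPM or below in every brain. Snap25, a neuronal synapse gene, was at 966 CPM or above in every brain and at 40.4 CPM or below in every liver. The brain of the 28-month mouse 15 stood apart: it had the lowest brain total, and held 0 counts of Irgm2, Tgtp1 and Tgtp2, 3 of Iigp1, 5 of Gbp7 and 14 of Irgm1. A few mice stood out upward. The 3-month mouse 12, the 15-month mouse 7, the 24-month mice 10 and 13 and the 28-month mouse 1 were at or near the top of their age for most of the 10 genes, and some results are given with and without the first 4. These mice were picked out after their values were seen, and they are treated as individuals, not as a group. Leaving out a mouse picked for high values lowers the level of its age, so a comparison without it is shifted by that choice and is given only to show how far single mice move the values.

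Every gene was expressed more highly in the liver than in the brain. In the joint fit of both tissues, 10 of 10 genes were higher in the liver at 3 months by edgeR's quasi-likelihood test with Benjamini-Hochberg adjustment, where 43.2% of the 14035 genes tested were higher in the liver. The log2 difference was 7.63 ± 0.25 (SE) for the vacuole-coating effector Iigp1, 198-fold. It was 4.26 ± 0.20 for Irgm2, 4.21 ± 0.26 for Igtp, 4.05 ± 0.16 for Irgm1, 3.22 ± 0.40 for Tgtp1 and 2.95 ± 0.41 for Tgtp2. The differences of the GBPs were 2.33 ± 0.18 for Gbp7, 2.02 ± 0.30 for Gbp4, 1.96 ± 0.26 for Gbp2 and 1.74 ± 0.23 for Gbp3. At 28 months 10 of 10 were again higher in the liver, against 43.5% of all genes, by log2 differences from 2.23 for Gbp4 to 7.52 for Iigp1, with Gbp2 at 3.31 ± 0.25 and Tgtp2 at 3.38 ± 0.37 side by side. The median of all genes between the tissues at 3 months was -0.08 on the log2 scale with TMM scaling and 0.03 with RLE size factors, and the 10 genes were higher in the liver under both.

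Per length, on the scale of median CPM per kilobase of exon, the order of the genes differed between the tissues. In the 3-month liver Iigp1 led at 66.2, apart from the next gene, followed by the regulators Igtp at 21.96, Irgm2 at 19.0 and Irgm1 at 17.2. The GBPs came next, with Gbp3 at 3.20, Gbp2 at 2.99, Gbp7 at 2.91 and Gbp4 at 1.03, and Tgtp1 and Tgtp2 were lowest at 0.429 and 0.349. In the 3-month brain Igtp (2.03), Gbp3 (1.67), Irgm1 (1.61), Gbp2 (1.59) and Irgm2 (1.52) formed a run in which the quartile ranges of neighbours overlapped. Gbp7 (0.962), Iigp1 (0.559), Gbp4 (0.412), Tgtp2 (0.101) and Tgtp1 (0.086) followed. Iigp1 thus moved from first place in the liver to seventh in the brain. In the 28-month liver the first 4 places were unchanged, at 80.2, 44.8, 37.2 and 17.4, and Gbp2, at 10.2, stood above Gbp3 at 8.18. The quartile ranges of Gbp2 and Gbp3 overlapped at both ages. At 28 months those of Iigp1 and Igtp, Igtp and Irgm2, and Irgm1 and Gbp2 overlapped as well, so these orders are not resolved.

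In the aging liver all 4 GBPs rose from 3 to 28 months, and some of the IRGs did. From 3 to 28 months 7 of 10 genes were higher in the liver (31.9% of 15579 genes tested were higher and 61.9% changed in either direction) by edgeR's quasi-likelihood test with Benjamini-Hochberg adjustment. The median log2 fold change was 0.79 over the 10 genes and 0.01 over all genes. The GBPs rose by 3.11-fold for Gbp2, 2.23-fold for Gbp3, 1.77-fold for Gbp4 and 1.67-fold for Gbp7. Among the IRGs, 3 of 6 rose: Tgtp1 by 1.87-fold, Igtp by 1.71-fold and Irgm2 by 1.63-fold. The call of Tgtp1 (adjusted p = 0.0477) was lost in 24 of 37 fits with 1 library left out, which gave log2 fold changes from 0.73 to 1.56. It was also lost without the filter on low counts, without the prep term and with the clock covariate. Each of these left 6 genes called, against 35.1%, 61.3% and 53.7% of all genes. Its copy Tgtp2, at 1.75-fold, missed the threshold, and Iigp1 and Irgm1 stood at 1.08-fold and 1.01-fold.

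Gbp2, which targets pathogen vacuoles and bacterial membranes, had the largest change of the 10. Its liver level ran from 5.11 through a median of 7.52 to 63.2 CPM at 3 months, where the highest value was mouse 12 and the next was 9.54. It ran from 5.20 through 6.92 to 13.1 at 9 months, from 5.21 through 8.37 to 22.5 at 15 months, and from 8.82 through 17.5 to 136 at 24 months. At 28 months it ran from 9.96 through 25.5 to 70.5 CPM. Without mouse 12 the 3-month and 28-month livers did not overlap, and with it 18 of 18 livers at 28 months lay above the 3-month median. The log2 fold change was 1.64 ± 0.32 (SE, adjusted p = 7.36e-06), and 2.15 ± 0.28 without mouse 12.

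Gbp3 ran from 5.62 through 10.5 to 56.3 CPM in the 3-month liver and from 5.42 through 26.7 to 59.7 at 28 months, with 17 of 18 old livers above the young median. Its log2 fold change was 1.15 ± 0.26 (adjusted p = 0.000121). Gbp4, of the chromosome 5 cluster, ran from 5.12 through 7.74 to 44.4 CPM at 3 months and from 5.58 through 14.2 to 45.3 at 28 months (0.82 ± 0.30, adjusted p = 0.0138). Both GBPs overlapped between the ages through the lowest old livers and the young mouse 12. Gbp7, which acts beside the other GBPs on vacuoles, ran from 10.0 through 16.3 to 72.6 CPM at 3 months and from 13.2 through 29.4 to 72.4 at 28 months (0.74 ± 0.21, adjusted p = 0.00186). In 15 of 18 old livers it was above the young median.

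**Figure D1:**
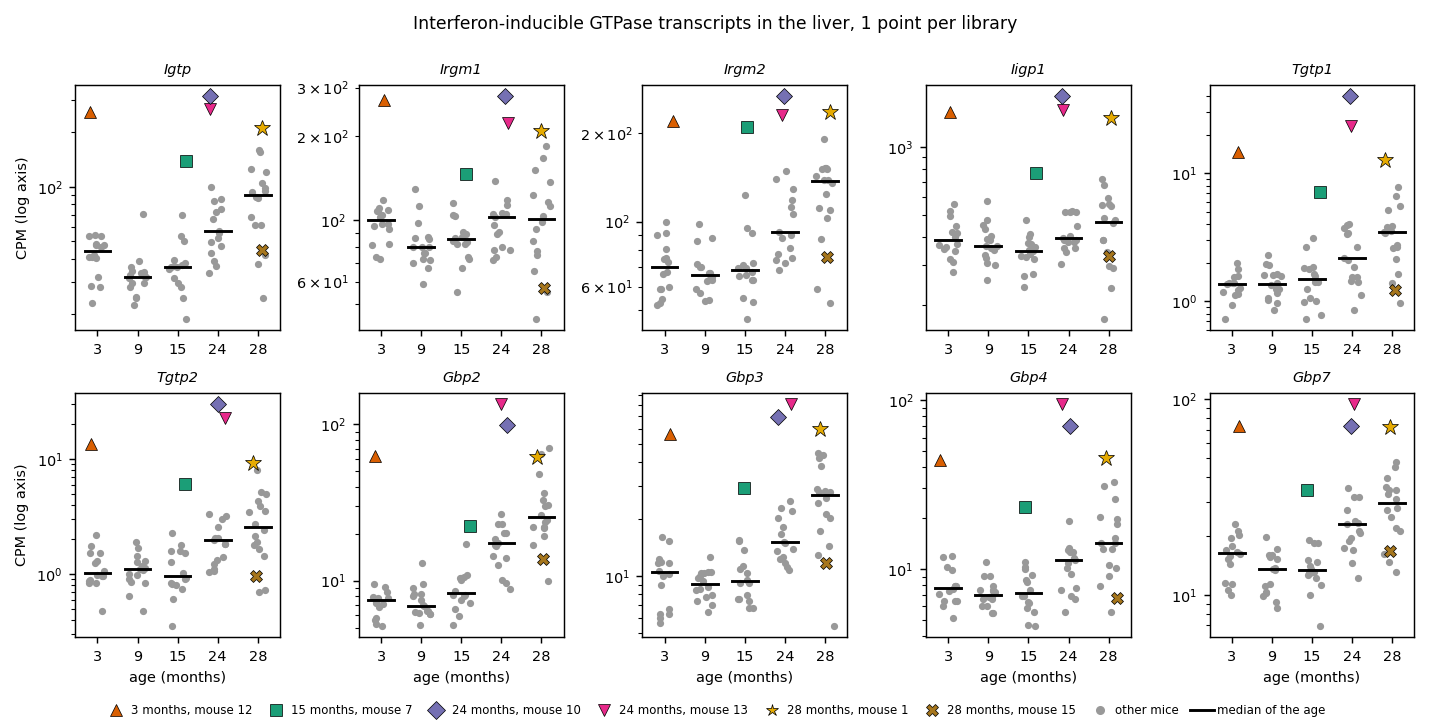
Levels of the 10 genes in each of the 83 liver libraries by age, in CPM on log axes. Points are mice, bars are the median of the age, and the marked points are the mice named in the text. The medians of Gbp2 and Gbp3 climb from 15 to 28 months, those of Irgm1 stay between 79.8 and 103 CPM, and the same few mice are at the top of most panels.

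Of the membrane-bound regulators, Igtp ran from 22.8 through 44.4 to 258 CPM in the 3-month liver, where the second highest value was 54.3. Its median was 31.97 at 9 months, 36.3 at 15, 56.9 at 24 and 90.6 at 28 months, when values ran from 24.5 to 211 CPM. At 28 months 15 of 18 livers exceeded the young median, none exceeded mouse 12, and the log2 fold change was 0.78 ± 0.28 (adjusted p = 0.0131). Irgm2 followed it, from 51.9 through 70.0 to 220 CPM at 3 months to 52.7 through 137 to 236 at 28 months (0.70 ± 0.18, adjusted p = 0.000617). For the third regulator, Irgm1, no change was detectable. It ran from 72.6 through 99.9 to 271 CPM at 3 months and from 44.0 through 101 to 210 at 28 months, with 9 of 18 old livers above the young median. Its log2 fold change was 0.02 ± 0.17 (adjusted p = 0.928), a value whose sign turned under several alternatives, and the lowest liver at 28 months lay below every young one.

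Among the vacuole-coating effectors, Iigp1 (chr18:60376027-60392634, plus strand) had the highest liver CPM of the 10 genes and no detectable change from 3 to 28 months. It ran from 279 through 386 to 1428 CPM at 3 months and from 173 through 467 to 1335 at 28 months, with the median between 348 and 467 at all 5 ages. Its log2 fold change was 0.11 ± 0.20 (adjusted p = 0.637). Tgtp1, the scarcer effector, ran from 0.729 through 1.38 to 14.7 CPM at 3 months and from 0.971 through 3.45 to 12.6 at 28 months (0.91 ± 0.41, adjusted p = 0.0477). Its copy Tgtp2 ran from 0.474 through 1.03 to 13.5 and from 0.700 through 2.57 to 9.14 CPM (0.81 ± 0.42, adjusted p = 0.0892). For both, the young mouse 12 lay above every 28-month liver, and without it the log2 fold changes were 1.56 ± 0.38 (adjusted p = 0.000237) and 1.50 ± 0.39 (adjusted p = 0.000593).

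Within single library preps the pattern of the liver was present in 2 of 3. In prep 1 alone 8 of 10 genes were called (39.9% of all genes) and Gbp2 changed by 2.28 ± 0.37, and in prep 3 alone 8 were called (42.2% of all genes) with Gbp2 at 2.37 ± 0.45. Prep 2 held mouse 12, and there 0 of 10 were called by edgeR's quasi-likelihood test (15.6% of all genes), with Gbp2 at 0.36 ± 0.57. Without that mouse 1 gene was called in prep 2 (25.3% of all genes), Gbp2 at 1.53 ± 0.46 (adjusted p = 0.018).

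From 15 to 24 months in the liver 9 of 10 genes rose, against 21.6% of all genes higher and 36% changed in either direction, and the median log2 fold change was 1.01 over the 10 genes and 0.02 over all genes. Tgtp2 rose by 1.70 ± 0.44 (adjusted p = 0.00164), Gbp2 by 1.54 ± 0.32 (adjusted p = 0.000117), and Igtp by 0.98 ± 0.28 (adjusted p = 0.00465). In 5 fits with 1 mouse left out, Tgtp2 ran from 1.08 to 2.04, Gbp2 from 1.13 to 1.67 and Igtp from 0.73 to 1.22. Iigp1, not called between 3 and 28 months, rose by 0.52 ± 0.20 here (adjusted p = 0.036), and only Irgm1 missed the threshold (0.36 ± 0.17, adjusted p = 0.0862). Mice 10 and 13 at 24 months carried part of this: without either of them 6 genes were called (31.9% of all genes without mouse 10 and 31.1% without mouse 13), and Iigp1 and Irgm2 were lost in both cases. In prep 1 alone 0 of the 10 were called by edgeR (0.0193% of all genes), and 8 of the 10 estimates were below 0. From 3 to 24 months 8 of 10 genes rose (25% of all genes higher, 49% changed in either direction), 3 without mouse 10 (45.9% of all genes changed) and 3 without mouse 13 (47.3%), and these 3 were Gbp2, Gbp3 and Irgm2 both times.

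No gene was called in the liver in the other steps. From 3 to 9 months all 10 estimates were below 0, from -0.75 to -0.21 on the log2 scale. There edgeR called 0 of 10 (4.69% of all genes) and DESeq2 0 (5.64%). An unadjusted p under 0.05 was found by edgeR for 3 of the 10, and for 3100 of the 15579 genes tested. The counts were also 0 of 10 from 3 to 15 months (0 unadjusted, 0 by DESeq2, 7.32% of all genes) and from 9 to 15 months (0 unadjusted, 0 by DESeq2, 0.0514% of all genes). From 24 to 28 months edgeR called 0 (0 unadjusted, 0 by DESeq2, 15.3% of all genes). Taking the 4 age terms together, 9 of 10 liver genes differed with age (71.5% of all genes), and Iigp1 missed the threshold (adjusted p = 0.0591), though 10 of 10 were called without the prep term.

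In the brain 1 gene was called, the membrane regulator Irgm1. From 3 to 28 months all 10 estimates were above 0, from 0.10 for Irgm2 to 0.64 for Gbp4, with a median log2 fold change of 0.34 against 0.01 over all genes. Of the 10, only Irgm1 was called (16.3% of the 18711 genes tested were higher and 28.3% changed in either direction), so the share called was below that of all genes. Irgm1 rose by 1.39-fold. DESeq2 called 3, adding Gbp4 and Igtp, where it called 31.4% of all genes. In edgeR 6 had an unadjusted p under 0.05, as did 7450 of the 18711 genes.

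Irgm1, the regulator with no detectable change from 3 to 28 months in the liver, ran from 7.45 through 9.37 to 13.2 CPM in the 3-month brain. It ran from 7.92 through 9.54 to 10.7 at 9 months, from 8.72 through 9.51 to 15.0 at 15 months and from 10.4 through 11.9 to 20.6 at 24 months. At 28 months it ran from 1.61, in mouse 15, through 13.0 to 21.1 CPM. All 17 brains at 24 months and 17 of 18 at 28 months lay above the young median, and 8 of the 18 lay above the highest young brain. The log2 fold change was 0.47 ± 0.11 (adjusted p = 0.000491), 0.54 ± 0.08 without mouse 15, and between 0.42 and 0.54 whichever library of the 2 ages was left out. Within library preps it was 0.61 ± 0.11 in prep 1, 0.51 ± 0.14 in prep 2 and 0.29 ± 0.29 in prep 3, which holds mouse 15, and only the first passed the threshold. From 3 to 24 months Irgm1 was again the 1 gene called (6.19% of all genes higher, 10.1% changed in either direction), at 0.34 ± 0.11 (adjusted p = 0.0334), but 0 were called without mouse 10 (9.3% of all genes changed) or without mouse 13 (9.11%). There were 4 called without the 3-month mouse 12 (9.4% of all genes) and 4 without the 28-month mouse 15 (18.7%).

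The remaining brain values overlapped widely between ages. Gbp4 ran from 2.35 through 3.08 to 10.7 CPM at 3 months, with mouse 12 highest and 4.80 next. Its median was 2.81 at 9 months, 3.19 at 15, 4.21 at 24 and 5.23 at 28 months, and the highest values were 13.5 in the 15-month mouse 7, 30.2 in the 24-month mouse 10 and 16.5 in the 28-month mouse 1. Its log2 fold change from 3 to 28 months was 0.64 ± 0.26 (adjusted p = 0.0524), and 0.85 ± 0.25 (adjusted p = 0.00763) without mouse 12. The effectors were scarce and not called: Tgtp1 had medians of 0.276 and 0.483 CPM at 3 and 28 months (0.60 ± 0.30, adjusted p = 0.116), and Iigp1 of 3.26 and 3.70 CPM (0.25 ± 0.18, adjusted p = 0.281). Igtp ran from 2.89 through 4.11 to 6.72 CPM at 3 months and from 3.45 through 5.67 to 9.36 at 28 months (0.36 ± 0.15, adjusted p = 0.0586), with 16 of 18 old brains above the young median. Gbp2, which led the change in the liver, ran from 2.04 through 4.00 to 5.72 CPM in the 3-month brain and from 2.87 through 4.91 to 8.10 at 28 months (0.32 ± 0.14, adjusted p = 0.0675).

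The count of brain calls hung on single libraries. Without the brain of the 28-month mouse 15, 6 genes were called higher from 3 to 28 months (15.6% of all genes were higher): Irgm1, Gbp2, Gbp3, Gbp4, Gbp7 and Igtp. Without the 3-month mouse 12, 4 were called higher (16.1% of all genes). Between 15 and 24 months 9 of 10 genes had an unadjusted p under 0.05 by edgeR, all upward, as did 1631 of the 18711 genes tested in either direction. After adjustment edgeR called 0 (0.732% of all genes), and DESeq2 called 1, Igtp (1.36% of all genes). Without the 15-month mouse 7, 3 of the 10 were called in that step (0.748% of all genes), and without the 28-month mouse 15, 2 were (1.57%).

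As in the liver, all 10 estimates fell below 0 from 3 to 9 months in the brain. The lowest was Iigp1 at -0.68 ± 0.18 (adjusted p = 0.0919), where 0 of the 16 brains at 9 months lay above the young median of 3.26 CPM. There edgeR called 0 of 10 (0.315% of all genes), and 1 without mouse 15 (0.658% of all genes). DESeq2 called 1, which was Iigp1 (0.676% of all genes). An unadjusted p under 0.05 was found by edgeR for 2 of the 10, and for 1399 of the 18711 genes tested. The counts by edgeR were 0 from 3 to 15 months (1 unadjusted, beside 1452 of all genes, 0 by DESeq2, 0.871% of all genes) and 0 from 9 to 15 (0 unadjusted, 0 by DESeq2, 0% of all genes). From 24 to 28 months the count was 0 (0 unadjusted, 0 by DESeq2, 1.09% of all genes). With the 4 age terms together 9 of 10 brain genes differed (20.6% of all genes), the lowest adjusted p being 2.73e-05 for Irgm1, and Gbp7 missed the threshold (adjusted p = 0.227).

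**Figure D2:**
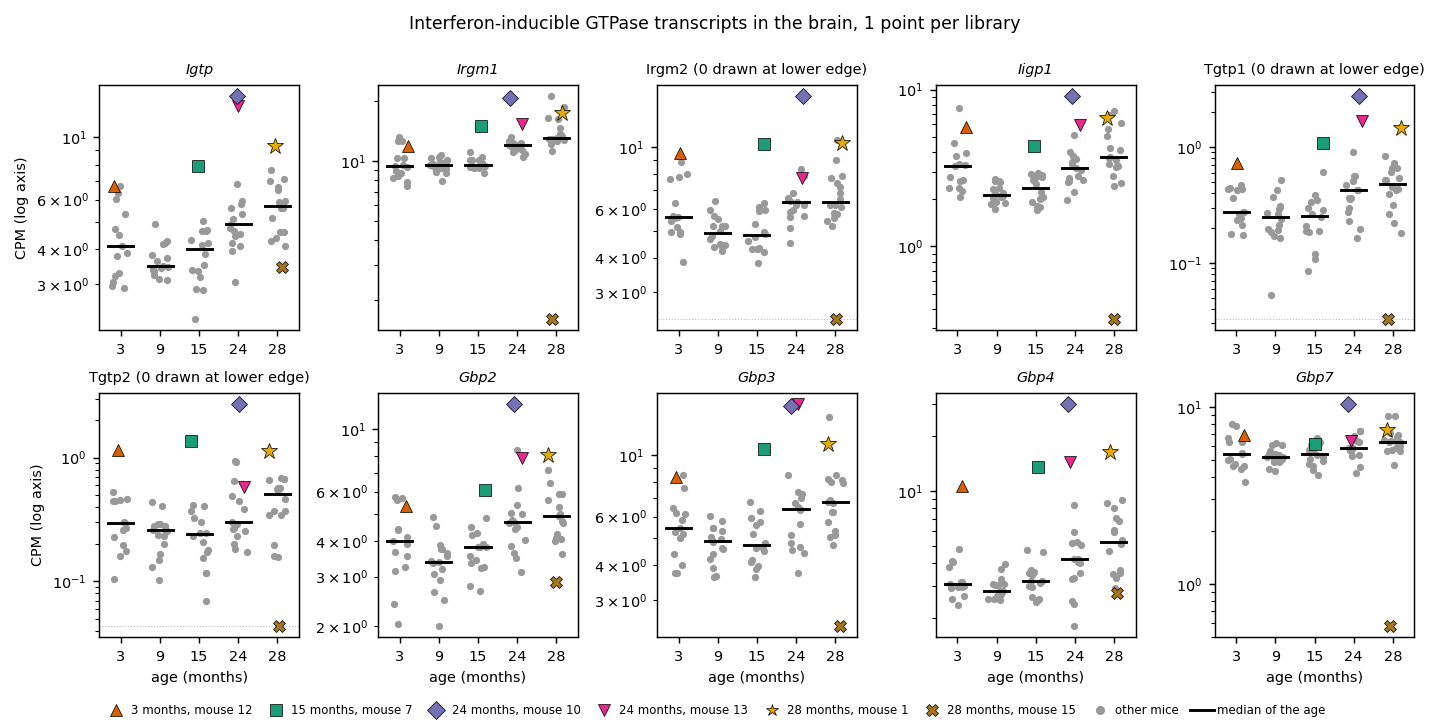
Levels of the 10 genes in each of the 82 brain libraries by age, in CPM on log axes, with points, bars and marked mice as for the liver. Values at 0 are drawn at the lower edge. The ages overlap in every panel, and the 28-month mouse 15 lies at or near the bottom for most genes.

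Whether the change with age differed between the tissues was tested as an interaction in the joint fit. Gbp2, Gbp3, Irgm2 and Gbp7 rose more in the liver than in the brain, 4 of 10 genes, where 27.2% of the 14035 genes were called in that direction and 49.2% in either. The share of the 10 called in either direction was thus below that of all genes. The liver change exceeded the brain change by 1.34 ± 0.34 for Gbp2 (adjusted p = 0.000564), 0.87 ± 0.30 for Gbp3 (adjusted p = 0.0126), 0.64 ± 0.24 for Irgm2 (adjusted p = 0.0186) and 0.62 ± 0.24 for Gbp7 (adjusted p = 0.0245), on the log2 scale by edgeR. For Irgm1 the sign was opposite, -0.42 ± 0.20 (adjusted p = 0.071). With the mouse as a replicate block, which the pairing in the labels allows, 8 of 10 were called (45% of all genes). The difference for Irgm1 was then -0.42 ± 0.14 (adjusted p = 0.0133), and Igtp (0.51 ± 0.19, adjusted p = 0.0212), Tgtp1 (0.61 ± 0.26, adjusted p = 0.0467) and Tgtp2 (0.71 ± 0.29, adjusted p = 0.0418) joined the first 4. Gbp4 did not pass in either fit (0.21 ± 0.39 and 0.25 ± 0.14). Igtp also passed without the 3-month mouse 12 (0.77, adjusted p = 0.0227), where 5 of 10 genes were called (50.8% of all genes). Without the brain of the 28-month mouse 15, 5 were called as well (48.3% of all genes).

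**Figure D3:**
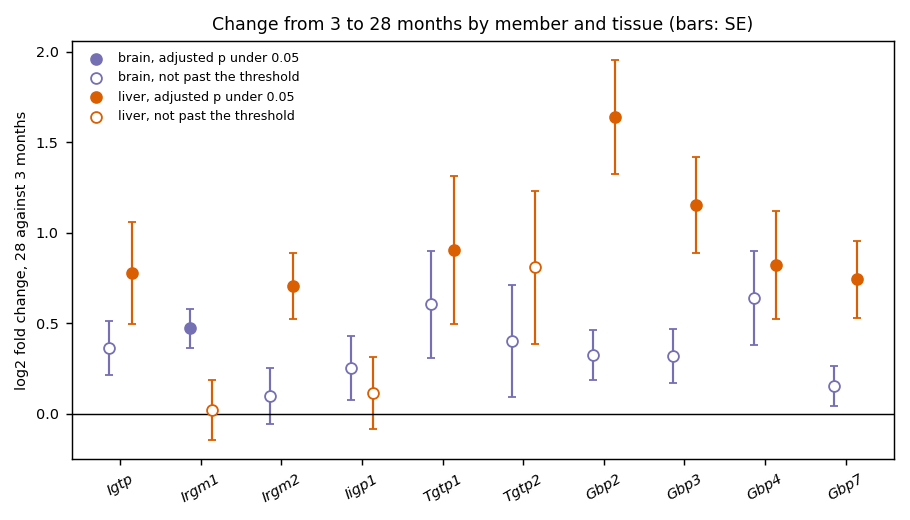
Log2 fold change from 3 to 28 months for each gene in brain and liver, with bars of 1 SE; filled points have an adjusted p under 0.05 by edgeR. The liver points of the 4 GBPs lie above the brain points, and Irgm1 is the gene whose brain point is filled and whose liver point sits at 0.02.

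Mice that were high in the liver tended to be high in the brain as well. After the means of age and prep were removed, brain and liver log2 levels of the same mouse were positively correlated over 82 mice for 7 of 10 genes, where 1.28% of the 14035 genes were called positive and the median r of all genes was -0.01. Pearson's r was 0.84 for Gbp4, 0.70 for Igtp, 0.70 for Tgtp1, 0.63 for Tgtp2, 0.63 for Gbp3, 0.51 for Gbp2 and 0.50 for Irgm1. Each of these had a permutation p of 1e-05, the smallest that 100000 permutations of mice within an age can give, and an adjusted p of 0.00216 over all 14035 genes. Iigp1 (r = 0.41, permutation p = 0.00166, adjusted p = 0.0698), Gbp7 (r = 0.37, permutation p = 0.00203, adjusted p = 0.0789) and Irgm2 (r = 0.35, permutation p = 0.00196, adjusted p = 0.0781) did not pass.

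Ranks gave lower values and called 8 genes (1.38% of all genes). Spearman's rho was 0.61 for Gbp4, 0.52 for Tgtp1, 0.52 for Igtp, 0.45 for Irgm1, 0.45 for Gbp3, 0.43 for Tgtp2, 0.42 for Gbp7 and 0.38 for Irgm2, with permutation p from 1e-05 to 0.00044 and adjusted p up to 0.0307. By rank Gbp2 (rho = 0.34, permutation p = 0.00244, adjusted p = 0.0926) and Iigp1 (rho = 0.24, permutation p = 0.042, adjusted p = 0.337) did not pass. Without the 2 mice farthest from the median of the brain value, chosen for each gene by itself, r ran from 0.36 for Iigp1 to 0.80 for Gbp4. No adjustment over all genes was made there: for 8 genes the unadjusted permutation p was at or under 0.00097, the highest p called over all mice, and for Iigp1 and Gbp7 it was above.

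Single mice shaped these values in both directions. Without the brain of the 28-month mouse 15 all 10 genes passed (2.34% of all genes), with r from 0.44 for Gbp7 to 0.84 for Gbp4, and Irgm2 went from 0.35 to 0.57. Without the 3-month mouse 12, the 15-month mouse 7 and the 24-month mice 10 and 13, 4 genes passed (1.1% of all genes): Gbp4 at 0.70, Tgtp1 at 0.55, Igtp at 0.50 and Tgtp2 at 0.47. The others then ran from 0.20 for Iigp1 to 0.44 for Irgm1, so the calls of Gbp2, Gbp3 and Irgm1 were lost without those mice. With all 5 of these mice left out, 5 genes passed (2.21% of all genes), the same 4 and Irgm1 at 0.49. Within each of the 3 preps all r were positive, from 0.26 to 0.91 over 26 or 28 mice, and 0 of 10 passed after adjustment in each (0.0641%, 0.0356% and 0.0214% of all genes). Gbp4, the strongest, had r of 0.71 in prep 1, 0.90 in prep 2 and 0.91 in prep 3, with permutation p of 0.00122, 0.00023 and 0.00011.

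By age, as a description, the coupling of Gbp4 was 0.85 at 3 months, 0.18 at 9, 0.77 at 15, 0.93 at 24 and 0.83 at 28 months over 15 to 18 mice. At 9 months r ran from -0.45 for Tgtp2 to 0.43 for Igtp, and mouse 4 was the highest liver for 7 of the 10 genes, with Igtp at 70.4 CPM and 39.0 next. At 24 months it ran from 0.38 for Gbp7 to 0.93 for Gbp4.

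**Figure D4:**
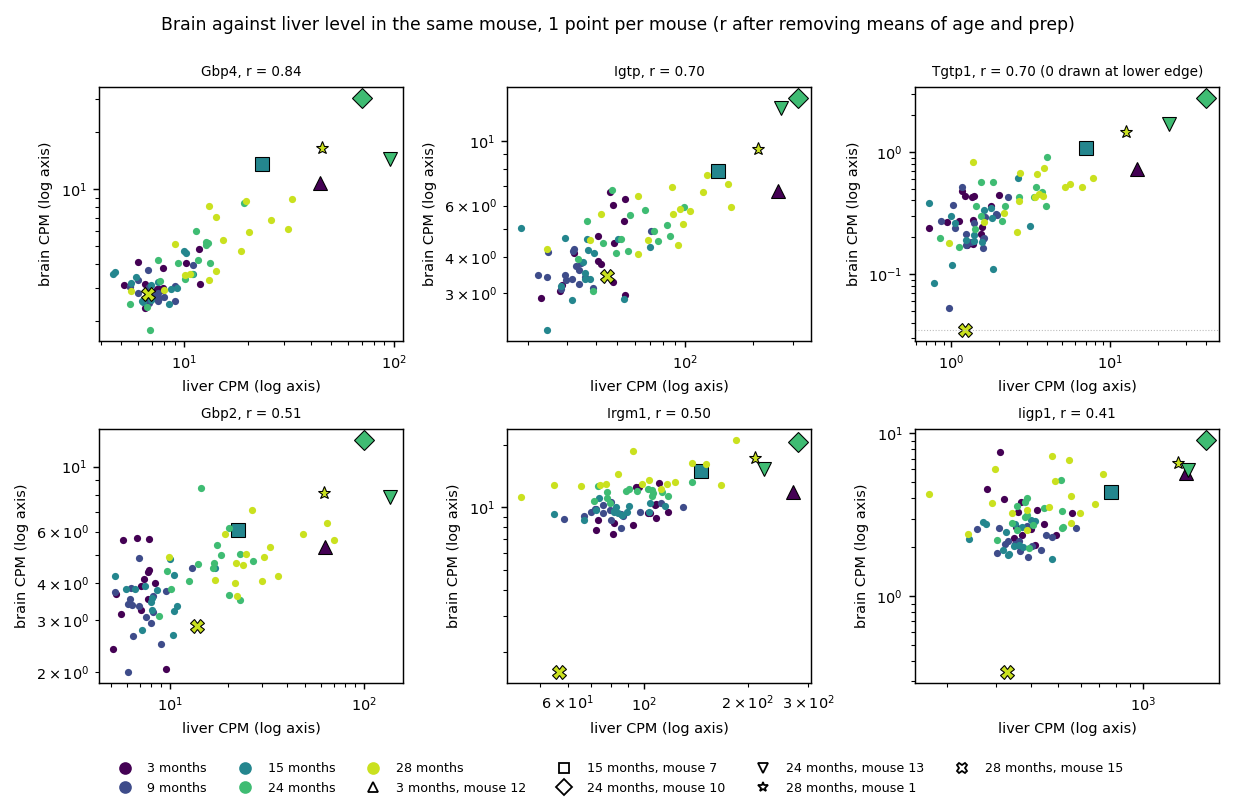
Brain against liver level of 6 genes, 1 point per mouse with both tissues, in CPM on log axes, coloured by age. Most of the marked mice with high values lie toward the right of the panels, but the 15-month mouse 7 lies near the middle for Gbp2, Gbp4 and Tgtp1. The 28-month mouse 15 lies at the bottom for Tgtp1, Irgm1 and Iigp1.

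**Figure D5:**
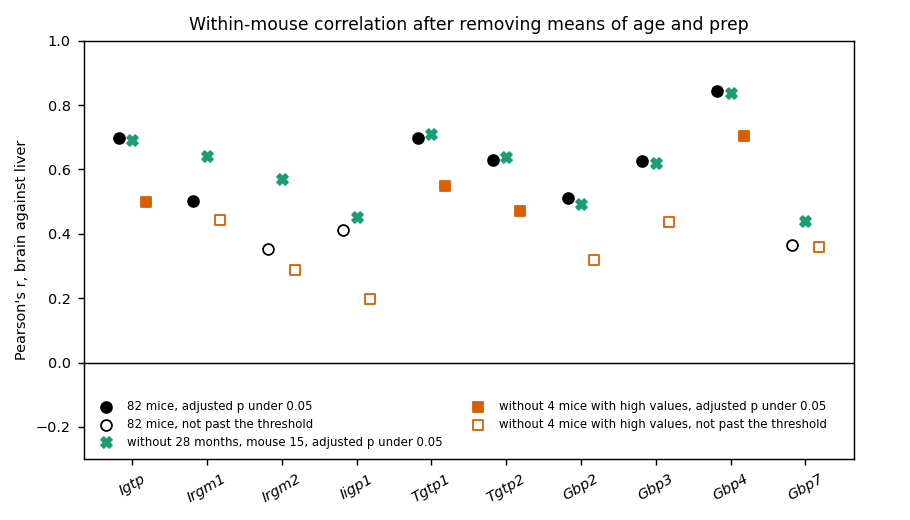
Pearson's r between brain and liver for each gene, adjusted for age and prep, over all 82 mice, without the 28-month mouse 15, and without 4 mice with high values. Gbp4 is highest in each of the 3 sets, at 0.84, 0.84 and 0.70.

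The named mice show the size of this spread. The liver of the 3-month mouse 12 was the highest of its age for 10 of 10 genes, with a median ratio of 5.52 to the median of the 15 mice of that age with both tissues and up to 13.8 for Tgtp2. Its brain was the highest for 5, with a median ratio of 1.67. The 15-month mouse 7 was highest for 10 genes in the liver (median ratio 3.09) and for 9 in the brain (2.06), all but Gbp7. The 24-month mouse 10 was highest for 6 genes in the liver (5.05, up to 18.2 for Tgtp1) and for 9 in the brain (2.73, up to 9.08 for Tgtp2). Mouse 13 of the same age held the other 4 highest liver values and was among the top 2 brains for 6 genes. The 28-month mouse 1 was highest for 9 genes in the liver (2.45) and for 5 in the brain (1.65). In all 5 mice the median ratio was larger in the liver than in the brain. For carry-over of tissue, the brains of these mice held 0.0252 to 0.212 CPM of Alb, 1 to 5 counts. Their livers held 0 counts of Snap25, while the sum of 4 brain markers, Snap25 included, was 4.53 to 12.6 CPM there. It ranked 1st, 1st, 2nd, 1st and 8th of its age, in the order named. In their brains the sum of 4 liver markers was 0.560 to 3.02 CPM and ranked 9th, 8th, 13th, 1st and 14th. The part of carry-over in the GTPase values was not tested.

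The ligand itself was scarce. Ifng had at most 2 counts in each of the 82 brains. In the liver it exceeded 3 counts in 25 of 83 libraries, 2, 2 and 2 at 3, 9 and 15 months and 9 and 10 at 24 and 28 months. Its highest liver levels were 2.31 CPM (91 counts) in the 24-month mouse 13 and 1.69 CPM (68 counts) in mouse 10. The 3-month mouse 12 had the highest young value, 0.360 CPM. The 15-month mouse 7 had 0.116 CPM (4 counts), below the maximum of 0.155 in mouse 2 of that age. The 28-month mouse 1 had 0.286 CPM, below the maximum of 0.679 in mouse 4 of that age.

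Sums of T cell, macrophage and B cell markers were near the top of their age in most livers of the mice named above. The summed level of 14 T and natural killer cell markers in the liver was 49.1 CPM in the 3-month mouse 12, 33.8 in the 15-month mouse 7, 96.9 and 128 in the 24-month mice 10 and 13, and 43.4 in the 28-month mouse 1. Those sums ranked 1st, 1st, 2nd, 1st and 5th of their age. In the same livers the sum of 10 macrophage and myeloid markers ranked 1st, 3rd, 1st, 3rd and 3rd. For 6 B and plasma cell markers the ranks were 1st, 3rd, 4th, 1st and 10th, and for 6 neutrophil markers 1st, 8th, 1st, 7th and 4th. Over all livers the T and natural killer cell sum ran from 5.74 through a median of 8.46 to 49.1 CPM at 3 months. It ran from 12.8 through 25.3 to 59.6 at 28 months, and 12 of these 14 markers rose, where 31.9% of all liver genes were higher. The sum of 10 macrophage and myeloid markers went from a median of 498 to 1360 CPM and all 10 rose, as did 6 of 6 B and plasma cell markers and 5 of the 5 neutrophil markers tested. In the brain the T and natural killer cell sum stayed between 0.345 and 3.39 CPM in every library. It ranked 1st, 12th, 5th, 1st and 4th of its age in the brains of the same 5 mice. Ncr1 of natural killer cells was at 3 counts or fewer throughout, and 0 of 3 markers tested were called by edgeR (28.3% of all brain genes). All 4 neutrophil markers tested were higher in the old brain, where 16.3% of all genes were, with summed medians of 0.847 and 7.03 CPM. The 10 microglia markers of the brain went from a median of 346 to 411 CPM, with 7 higher and 1 lower at 28 months (16.3% and 12% of all brain genes). The part of these cells in the GTPase values was not tested, and in bulk tissue more cells of a type and more RNA per cell cannot be told apart.

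Within a tissue the 10 genes varied together. Over the 83 livers, with age and prep removed, r between pairs of the 10 genes ran from 0.80 to 0.93 with a median of 0.87, Irgm1 and Iigp1 included. Over the 82 brains it ran from 0.43 to 0.96 with a median of 0.69, and from 0.52 to 0.83 with a median of 0.72 without the 28-month mouse 15. These correlations describe libraries that share depth and cell makeup. Among the genes most like the 10 in the liver, by mean r to them, were Gm12250 (0.91), an IRG gene, Gbp9 (0.89), BC023105 (0.87) and Gbp5 (0.87). Over all 82 brains they were Gbp5 (0.76), the class I histocompatibility gene H2-Q4 (0.69), Cd274 (0.68), which encodes the checkpoint ligand PD-L1, Tnfsf10 (0.66) and Sp100 (0.66). This list hung on 1 library. Without the 28-month mouse 15, Gbp5 (0.73) was 1st, H2-Q4 (0.70) was 4th and Sp100 (0.64) was 8th. Cd274 and Tnfsf10 were then outside the first 10, and other class I histocompatibility genes stood above Sp100.

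Other genes of both families moved as well. From 3 to 28 months 5 of 7 other GBP genes rose in the liver (31.9% of all liver genes): Gbp8 by 1.43 ± 0.30 (adjusted p = 2.82e-05), Gbp5 by 1.45 ± 0.34 (adjusted p = 0.00014), Gbp11, Gbp9 and Gbp2b. Of the 4 other IRG genes tested, Gm12250 rose by 1.36 ± 0.41 (adjusted p = 0.00314), while Irgq fell by 0.73 ± 0.09 and Gm4951 fell by 0.39 ± 0.07. In the brain Gm4951 rose, by 1.04 ± 0.26 (adjusted p = 0.00161), and so did Gm12250 (0.79 ± 0.21, adjusted p = 0.00219) and Gbp6 (0.50 ± 0.19, adjusted p = 0.0445), the last as 1 of 5 other GBP genes tested (16.3% of all brain genes were higher). Of 10 autophagy genes whose products help to place IRGs and GBPs on vacuoles, none was called higher in either tissue: 5 fell in the liver, where 30% of all genes fell, among them Gabarapl2 by 0.50 ± 0.05 and Atg12 by 0.31 ± 0.04, and in the brain, where 12% of all genes fell, 1 of 10 did, Atg12 by 0.25 ± 0.04.

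Upstream, the counts stand beside 31.9% of all genes higher and 30% lower in the liver, and 16.3% higher and 12% lower in the brain. In the liver 5 of 6 tested genes for interferon ligands and receptors rose, with Ifngr1 at 0.71 ± 0.10 and Ifngr2 at 0.34 ± 0.08. In the brain Ifngr1 rose by 0.22 ± 0.04 and Ifngr2 fell by 0.12 ± 0.04, among 7 tested. Of 13 signalling genes, 7 rose and 1 fell in the liver, and 5 rose in the brain. Nlrc5, the activator of class I antigen presentation genes, rose in both, by 0.98 ± 0.15 in the liver and 1.02 ± 0.14 in the brain. Irf1 rose by 0.71 ± 0.14 and 0.20 ± 0.06. Of 6 negative regulators, 4 rose in the liver, led by Socs3 at 2.02 ± 0.35, and 2 rose and 1 fell in the brain.

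Many interferon-gamma targets outside the GTPases rose in both tissues. In the liver 15 of 19 tested rose (31.9% of all genes) and 0 fell, at a median log2 fold change of 0.58, and the class II genes H2-Eb1 (1.83 ± 0.32) and Cd74 (1.69 ± 0.30) had large changes. In the brain 10 of 16 tested rose (16.3% of all genes) and 0 fell, with a median of 0.40. Among these 10 were genes of class I antigen presentation: Psmb8 of the immunoproteasome rose by 1.06 ± 0.16 (adjusted p = 3.72e-07), Tap1, the peptide transporter, by 0.76 ± 0.10 (adjusted p = 1.89e-09), and B2m by 0.58 ± 0.09 (adjusted p = 2.3e-07). Of 16 type I interferon targets, 9 rose (16.3% of all genes) and 1 fell (12%) in the brain, led by Xaf1 (0.59 ± 0.10), Rtp4 (0.62 ± 0.12) and Ifit3 (0.81 ± 0.17), and 8 rose (31.9%) and 1 fell (30%) in the liver. All adjusted p-values of these lists are from edgeR over all genes of the tissue, and the difference between the lists was not tested.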

How the data were processed

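RNA was extracted from brain and liver with QIAzol and chloroform and made into stranded, poly(A)-selected libraries with 100-base paired reads, per the labels' protocols. The submitters' processing notes name cutadapt 2.8, HISAT2 2.1.0, SAMtools 1.9, featureCounts of Subread 2.0.1 and the builds GRCm38.p6 and mm10. The deposited values are raw counts per Ensembl gene, not normalized. The annotation release, the strand setting and the treatment of reads that match several genes are not given in the sources used here. Each tissue has 1 table of 55471 identifiers, 55144 of them with a symbol in the reference.

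The members, gene lists and tests were chosen with earlier results of these data known. Counts of each tissue were filtered with filterByExpr by age, scaled by TMM and tested by edgeR's quasi-likelihood test (edgeR 4.0.16, limma 3.58.1, R 4.3.3) on age and library prep over all 5 ages, with Benjamini-Hochberg adjustment over all genes tested and a threshold of 0.05. The SE of a log2 fold change is its size over the square root of F. The labels give 3 preps, and each held 4 to 7 libraries of an age and tissue. A joint fit of both tissues over 14035 genes tested tissue differences and the tissue by age interaction. Brain and liver pair by mouse because the labels give both the same age and number. For the correlation within mice, log2 CPM (prior count of 2) had the means of age and prep removed and was permuted within age 100000 times (Python 3.11.15, numpy 2.4.6, scipy 1.17.1). Genes are placed with GENCODE M21 on GRCm38, and sequence is from RefSeq. The age fit from 3 to 28 months, the interaction of the joint fit without a mouse block, and the within-mouse correlation were tested on simulated data. The alternatives and the other steps were not. All 10 members are named, and of other genes up to 5 per list with the lowest p from 3 to 28 months, Ifng, and the 5 per tissue most like the members. Of these, 1 gene is not reported here. Alternatives were RLE size factors, DESeq2 1.42.0, no filter on low counts, no prep term, single preps, only the ages compared, a replicate block, a clock gene covariate and single libraries left out. Settings without the high mice were chosen after seeing the data.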

Additional observations from a re-analysis of the deposited data

Results flagged for a closer look

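The change from 3 to 28 months differed between liver and brain for 4 of 10 genes, by the interaction test of the joint fit. That test called 49.2% of all genes, so the share was no higher among the 10, and it called 27.2% higher in the liver. On the log2 scale the liver change minus the brain change was 1.34 for Gbp2, 0.87 for Gbp3, 0.64 for Irgm2 and 0.62 for Gbp7. In each of these the liver rose and the brain change was smaller, and Gbp2 went from 3.9-fold higher in the liver at 3 months to 9.9-fold at 28 months. With the mouse as a replicate block 8 of 10 were called (45% of all genes), Irgm1 among them with the opposite sign.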

How the results depend on the processing

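Values are numbers of the 10 genes called, and no cause was tested. Brackets give the percentage of all genes called by the same fit in either direction. In the brain from 3 to 28 months 1 gene (28.3%) became 2 with RLE size factors (28.4%), without the prep term (28.3%) and with only the ages compared (17%). It became 3 with DESeq2 (31.4%), the replicate block (25.9%) and the clock covariate (23.9%). The count was 7 without the 4 high mice (30.2%). It was 0 in prep 2, with mouse 12 (1.96%) or without it (1.45%), and in prep 3 (6.36%). Leaving out single libraries gave 1 to 6. From 3 to 24 months 1 (10.1%) became 3 with DESeq2 (13.4%) and 2 without the prep term (9.71%). It became 0 with no filter (3.89%), in each prep (1.19%, 0.597% and 0.486%), in prep 2 without mouse 12 (0.48%) and without the 4 mice (7.66%). Single libraries gave 0 to 4. From 3 to 9 and from 15 to 24 months 0 (0.315% and 0.732%) became 1 with DESeq2 (0.676% and 1.36%) and with only the ages compared (0.617% and 0.963%). Single libraries gave 0 to 1 and 0 to 3 there. In the liver from 3 to 28 months 7 (61.9%) became 0 in prep 2 (15.6%) and 1 without mouse 12 there (25.3%), with 6 to 8 for single libraries. From 3 to 24 months 8 (49%) became 0 in prep 1 (5.83%) and in prep 2 (15.5%). It became 6 in prep 2 without mouse 12 (22.8%) and 5 with only the ages compared (42.8%), with 3 to 9 for single libraries. From 15 to 24 months 9 (36%) became 0 in prep 1 (0.0193%) and 5 in prep 3 (8.09%), with 6 to 10 for single libraries. From 24 to 28 months 0 (15.3%) became 2 in prep 1 (16.2%) and 8 without the 4 mice (30.5%). The 4 mice were picked for high values at 3, 15 and 24 months while the high 28-month mouse 1 was kept, so without them comparisons with 28 months are raised by the choice itself, and those counts support no change. The interaction went from 4 (49.2%) to 8 with the mouse as a replicate block (45%), and to 5 for single libraries (50.8% and 48.3%). For the within-mouse count, brackets give the percentage of all genes called positive. The count of 7 (1.28%) became 0 in each prep (0.0641%, 0.0356% and 0.0214%), 4 without the 4 mice (1.1%) and 10 without the brain of the 28-month mouse 15 (2.34%).

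Some log2 fold changes turned sign. In the brain from 3 to 28 months these were Gbp7 at -0.052, Irgm2 at -0.071 and Iigp1 at -0.12 in prep 3. In the liver they were, for Irgm1, -0.013 without the filter and -0.14 in prep 2, and in prep 2 -0.077 for Tgtp1, -0.13 for Tgtp2 and -0.33 for Iigp1. Single libraries moved Irgm1 there from -0.059 to 0.18 and Iigp1 from -0.022 to 0.31. In the liver from 3 to 24 months prep 1 gave -0.000605 for Gbp4, -0.16 for Irgm1 and -0.067 for Iigp1, prep 2 gave -0.057 for Irgm1 and -0.10 for Iigp1, Irgm1 was -0.013 without the 4 mice, and single libraries moved it from -0.045 to 0.25. From 15 to 24 months prep 1 gave -0.043 for Gbp3, -0.30 for Gbp4, -0.11 for Irgm1, -0.72 for Tgtp1, -0.42 for Tgtp2, -0.11 for Igtp, -0.20 for Irgm2 and -0.10 for Iigp1. The interaction of Iigp1 ran from -0.16 to 0.0098.

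The replicate numbers pair no mice across ages: 9 of 82 brains and 3 of 83 livers correlated best with their own number, and the median r of same-number pairs was 0.0096 and 0.0091. A single prep holds 4 to 7 libraries of an age, and low counts limit Tgtp1, Tgtp2 and Ifng in the brain.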
